A study of Oncorhynchus mykiss with 30 samples.

Results

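The 200 array probes described here are those whose signal in the gonads of all-male rainbow trout (Oncorhynchus mykiss) stayed near the solvent control at 0.01 μgEE2/L and was under-expressed from 0.1 μgEE2/L upward. EE2 is 17α-ethynylestradiol, a synthetic oestrogen of contraceptive pills. The probes were chosen by a rule on the log2 values that the authors deposited. The rule asked for a control mean of at least 8 log2 units, a mean at 0.01 μgEE2/L within 0.5 of the control and a mean at 0.1 μgEE2/L at least 1 below the control. Of the 59971 probes open to the rule, 825 met these conditions. They were ranked by the lower of the means at 0 and 0.01 μgEE2/L minus the highest of the means at 0.1, 1 and 10 μgEE2/L, and the first 200 of 60195 probes on the array were taken.

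Fry were kept for 76 days in water with solvent alone (0) or with a nominal 0.01, 0.1, 1 or 10 μgEE2/L, starting at 60 days post-fertilisation (dpf) and ending at 136 dpf. Every group, the solvent control included, was made of fish from the same all-male stock. Each concentration had 3 tanks and each tank gave 2 pools of 10 pairs of gonads, and the total RNA of a pool was labelled with Cy3 and hybridised to an oligonucleotide array of its own, for 6 arrays per group and 30 in all. Concentrations measured in the water averaged 0.08 ± 0.06, 1.62 ± 1.74 and 9.88 ± 5.06 μg/L (SD) for the nominal 0.1, 1 and 10 μg/L, and the lowest nominal concentration lay under the detection limit of 0.02 μg/L. RNA integrity numbers were above 8. An array therefore reports on a mixture from 10 fish, and the pools of a tank share its water, so that the spread between arrays is one of pools and tanks and not of single fish. In such bulk samples, fewer cells of a type and less RNA per cell cannot be told apart. Concentrations are given below as nominal μg/L of EE2.

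Oestrogens act through nuclear receptors that bind DNA and change transcription. In bony fish the gonad is sensitive to them while sex is being set, and a genetic male treated with an oestrogen at that time can form an ovary in place of a testis. Genes of the supporting and steroid-producing cells of the testis, such as amh (anti-Müllerian hormone, which restrains germ cell growth) and dmrt1 (a transcription factor of the male pathway), are known to be under-expressed in that setting. The 200 probes could not be tied to such genes. On the array they are identified by cluster numbers (122 probes, with the prefix TC) or custom identifiers (78 probes, with the prefix CUST). Their systematic names were compared with the reference gene table and with prepared lists of markers. The lists covered Sertoli and Leydig cells, germ cells, ovary, oestrogen response, muscle, stroma, blood and liver. Of the 200 names, 0 matched, and 0 of the 59971 probes open to the rule did. The lack of a match is therefore not particular to the 200. For want of matching names the labelled tissue, testis, could not be checked against its markers. From earlier histology, the paper reports immature testes in all control fish and altered gonads from the lowest concentration upward. Gonads at 0.1 μg/L were ovotestes, ovarian-like or altered testes. They were mostly ovarian-like at 1 μg/L and all ovarian-like at 10 μg/L. By that report the groups compared here differ in gonad type, and what this adds to the differences was not tested. The share of TC probes was 61.0% among the 200 and 52.2% among the probes open to the rule. All 200 carried distinct names.

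Levels are given as log2 of the background-corrected spot signal after quantile normalisation of the 30 arrays, a scale on which 1 unit is a 2-fold change. Levels of different probes cannot be compared with each other on such arrays. The 75th percentile of the signal before normalisation ranged from 349 to 1201 intensity units between arrays, with 0 saturated spots. The share of probes called well above background ran from 75.6% to 88.2% over the arrays. On all 30 arrays at once, 154 of the 200 and 62.5% of the whole array had that call. On a pair of arrays, control replicate 4 and the array of replicate 1 at 0.1 μg/L, many of the 200 probes from the middle of the array read low. The pair is called the dim arrays or dim pair below, and the stretch of array around those probes the dim region. Where the low spots lie among all probes is not given here. Of the 200 probes, 46 were over 2 log2 units low on the array at 0.1 μg/L, 37 on the control array and 32 on both. The 46 are described below as a set, while probes low on the control array alone stayed in the other sets. For 6 arrays, the dim pair included, the scanner files and the deposited table disagree on which of a concentration's pools an array is. They are replicates 2 and 4 of the control, 1 and 6 at 0.1 μg/L and 4 and 5 at 10 μg/L. The concentration is not in doubt for any of them, but the replicate number and tank are, and the scanner files' assignment is used here.

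The rule fixes the overall shape, so the differences from the control are a description and were not tested. The median over the 200 probes of the difference from the control mean was −0.15 at 0.01 μg/L, −1.77 at 0.1 μg/L, −2.32 at 1 μg/L and −2.11 at 10 μg/L. Over all probes of the array the same medians were −0.02, −0.00, −0.02 and −0.03. At 0.1 μg/L single probes were between 2.16-fold and 18.9-fold under the control. At 1 μg/L they were between 2.21-fold and 114-fold under it, 142 of them over 4-fold and 11 over 16-fold. Among the probes, 0, 186, 182 and 187 were called lower than the control at the 4 rising concentrations in limma (adjusted p below 0.05), beside 5.09%, 14.3%, 21.2% and 22.5% of all 60195 probes. Nothing is read from these counts, since the contrasts chose the probes.

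CUST_6655_PI425536763 ranked first. Its 6 arrays had a lowest, median and highest level of 15.98, 16.21 and 16.51 in the control, 15.89, 16.05 and 16.42 at 0.01 μg/L, 10.03, 12.24 and 13.08 at 0.1 μg/L, 10.21, 10.99 and 11.73 at 1 μg/L and 10.33, 10.85 and 11.00 at 10 μg/L. The arrays of the lower pair of concentrations and those from 0.1 μg/L upward did not overlap, and the means at 0.1 and 1 μg/L were 18.9-fold and 37.7-fold under the control. The lowest value at 0.1 μg/L was that of replicate 1, and without the dim arrays the mean there was 12.36 ± 0.45 (SD, n = 5), 14.7-fold under the control. The further fall of −0.999 ± 0.31 (SE) at 1 against 0.1 μg/L passed the test narrowly (adjusted p = 0.0477), with overlapping arrays. It no longer passed without any 1 of 21 of the 30 arrays (adjusted p from 0.000227 to 0.143 over all 30 omissions). The lowest of these came without the dim replicate 1 at 0.1 μg/L. Without the dim pair the difference was −1.39 (adjusted p = 0.000258 in limma).

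TC110694 ranked second, with 11.34, 13.26 and 14.46 in the control, 13.01, 13.61 and 14.06 at 0.01 μg/L, 7.64, 10.14 and 10.62 at 0.1 μg/L, 8.88, 9.59 and 10.42 at 1 μg/L and 9.42, 9.62 and 10.15 at 10 μg/L. Of its fall, 97.1% was reached at 0.1 μg/L with all arrays and 86.3% without the dim pair, where the fall is taken as the control mean minus the mean of the levels at 1 and 10 μg/L. Its lowest control array and its lowest array at 0.1 μg/L were the dim ones. At 1 against 0.1 μg/L it differed by −0.16 ± 0.43 (SE), which did not pass the test (adjusted p = 0.844), and without the dim pair by −0.59 (adjusted p = 0.152).

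TC107160 came next and fell in a pair of steps. It had 13.45, 14.15 and 14.60 in the control, 13.29, 13.72 and 14.45 at 0.01 μg/L, 9.30, 10.62 and 11.33 at 0.1 μg/L, 6.95, 7.39 and 8.14 at 1 μg/L and 6.74, 7.37 and 8.89 at 10 μg/L. The arrays at 1 and 10 μg/L lay below all 6 arrays at 0.1 μg/L, and the fall at 0.1 μg/L was 55.3% of the whole. Its lowest array at 0.1 μg/L was the dim replicate 1, 1.61 log2 units below the median of the other 5. Without the dim pair the difference between 1 and 0.1 μg/L was −3.16 (adjusted p = 2.43e-06 in limma). Its share of the fall without that pair was not taken. The shape after 0.1 μg/L thus differed between the top probes, which the plot of single arrays shows for these and other probes.

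**Figure D1:**
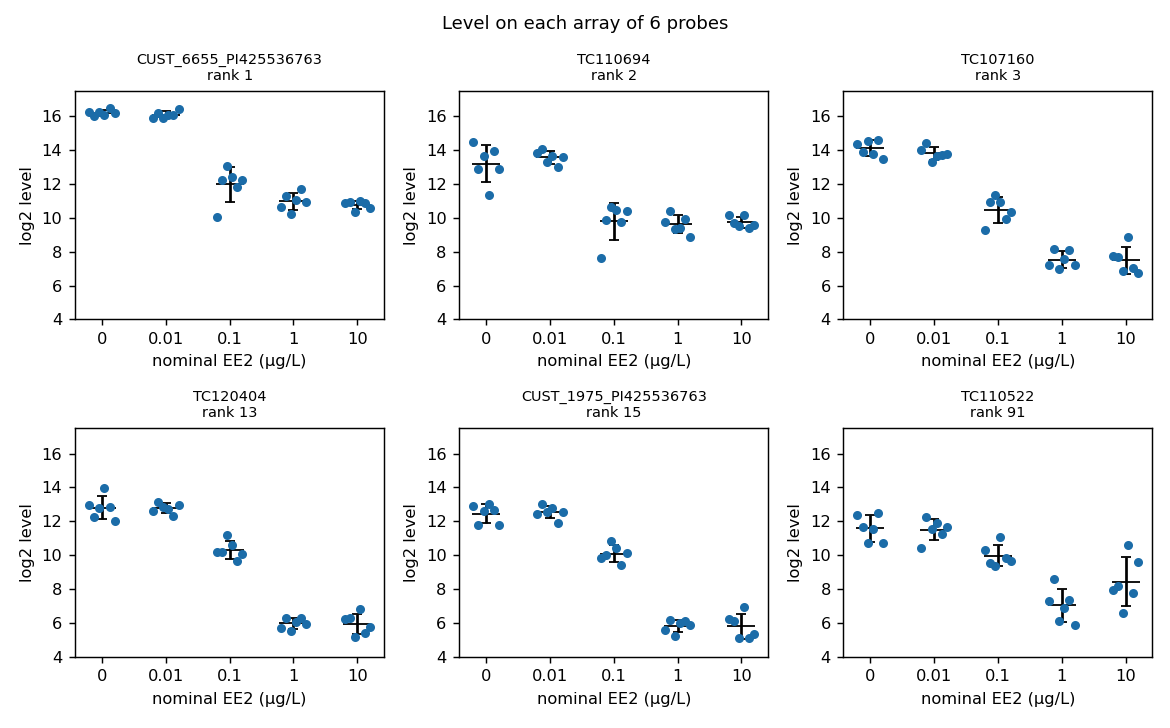
Log2 level (vertical axis) against nominal EE2 concentration in μg/L (horizontal axis) for 6 of the 200 probes. Points are the 6 arrays of a concentration and bars give their mean ± SD. All but TC110694 were lower at 1 than at 0.1 μg/L with an adjusted p below 0.05 in limma, CUST_6655_PI425536763 narrowly so. The share of the fall reached at 0.1 μg/L was 79.3% for CUST_6655_PI425536763 and 97.1% for TC110694 (72.2% and 86.3% without the dim pair). It was 55.3% for TC107160, 36.2% for TC120404, 35.6% for CUST_1975_PI425536763 and 41.7% for TC110522, whose shares without the dim pair were not taken.

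At the edge of the rule, the values just inside and just outside were close. TC117554, TC118641 and TC121083, the last 3 inside, had a rank measure of 1.11 each. TC128575, TC107169 and CUST_6153_PI425536763, the next in order, had 1.11, 1.10 and 1.10. Of the 3 inside, TC117554 differed between 1 and 0.1 μg/L by −0.78 ± 0.22 (SE, adjusted p = 0.0314 in limma), a call that was lost when replicate 1, 3 or 4 at either concentration was left out (adjusted p up to 0.104), and with normexp background correction (adjusted p = 0.0826). TC118641 differed by −0.96 ± 0.31 (SE, adjusted p = 0.0612 in limma), and passed the test without any 1 of 6 arrays, and TC121083 differed by −0.49 ± 0.21 (SE, adjusted p = 0.136 in limma).

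The rank takes the highest of the 3 upper means, so it works against probes that rose after 0.1 μg/L, while the size of a fall after 0.1 μg/L does not enter it. The counts of falls and rises in the list are therefore partly set by the selection and are given as a description. Of the 200 probes, 71 (35.5%) were lower at 1 than at 0.1 μg/L with an adjusted p below 0.05 in limma, where 4.66% of all probes were. Another 0 were higher, where 1.6% of all probes were. At 10 against 0.1 μg/L, 77 probes (38.5%) were lower, beside 13.1% of all probes, and 0 were higher, beside 10.9%. Both contrasts called 69 of the probes. These contrasts share the arrays at 0.1 μg/L, so they are not independent of each other. Among the 625 probes that met the conditions of the rule but ranked below the 200, 70 (11.2%) were lower at 1 than at 0.1 μg/L and 18 were higher, and at 10 against 0.1 μg/L 99 (15.8%) were lower and 58 were higher. The median difference between 1 and 0.1 μg/L was −0.49 over the 200 probes, 0.34 over those 625 and −0.03 over the array. It lay below 0 for 157 of the 200, for 227 of the 625 and for 31530 of all 60195 probes. For 49 of the 200, all 6 arrays at 1 μg/L were below all 6 at 0.1 μg/L, beside 3.22% of all probes.

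Between 10 and 1 μg/L, limma called 0 of the 200 probes in either direction, beside 0.00166% of all probes in each. An unadjusted p below 0.05 was found for 7 of the 200, and its count over all probes was not taken. The difference of a probe was known to within ± 0.64 log2 units (median half-width of the 95% interval). For 114 probes the whole interval lay within 1 log2 unit of 0, so that a 2-fold difference lay outside it, and for the others the interval reached a difference of that size.

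The largest fall from 0.1 to 1 μg/L was that of TC120404. Its lowest, median and highest levels were 11.997, 12.82 and 13.96 in the control, 12.32, 12.80 and 13.17 at 0.01 μg/L, 9.63, 10.20 and 11.21 at 0.1 μg/L, 5.51, 6.01 and 6.32 at 1 μg/L and 5.15, 5.99 and 6.81 at 10 μg/L. The 3 levels of this pattern (control, 0.1 μg/L, and 1 with 10 μg/L) did not overlap. The difference between 1 and 0.1 μg/L was −4.36 ± 0.29 (SE, adjusted p = 3.75e-10), or 20.5-fold lower, and the first step to 0.1 μg/L made up 36.2% of the whole fall. CUST_1975_PI425536763 followed it closely. It had 11.77, 12.64 and 13.00 in the control, 11.89, 12.57 and 13.00 at 0.01 μg/L, 9.42, 10.05 and 10.81 at 0.1 μg/L, 5.20, 5.93 and 6.15 at 1 μg/L and 5.09, 5.75 and 6.92 at 10 μg/L, again with no overlap between these 3 levels, and a difference between 1 and 0.1 μg/L of −4.28 ± 0.29 (SE, adjusted p = 4.24e-10). The levels of this pair of probes correlated with r = 0.998 over the 30 arrays, which includes the difference between concentrations. Whether both probes read the same transcript is not given by their names.

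TC130039 was a dim probe that left the measurable range. Its levels were 7.68, 8.08 and 8.91 in the control, 7.35, 7.87 and 8.34 at 0.01 μg/L and 4.81, 5.24 and 6.11 at 0.1 μg/L. At 1 μg/L it was not well above background on any of the 6 arrays, and at 10 μg/L it was well above background on 1. The lowest signal well above background on each array at 1 μg/L stood in where the probe lay under it. Against the mean so made, the level was 3.18-fold higher at 0.1 μg/L and 22.8-fold higher in the control. Such a floor is no strict limit for the probe. The fit in limma used the signals without that call (adjusted p = 9.14e-07). Normexp background correction was run with an offset of 50 intensity units, added to each signal before log2 was taken. With it the difference between 1 and 0.1 μg/L was smaller, at −0.69 (adjusted p = 0.00254 in limma).

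TC110522 had a wide spread. It had 10.69, 11.61 and 12.51 in the control, 10.43, 11.62 and 12.25 at 0.01 μg/L, 9.37, 9.76 and 11.08 at 0.1 μg/L, 5.88, 7.11 and 8.61 at 1 μg/L and 6.58, 8.07 and 10.57 at 10 μg/L. Its difference between 1 and 0.1 μg/L was −2.94 ± 0.52 (SE, adjusted p = 0.000795), with no overlap of arrays. Its mean at 10 μg/L was 1.41 ± 0.52 (SE) above that at 1 μg/L, which did not pass the test (adjusted p = 0.80), and the arrays overlapped. The fall of TC107160 at 1 against 0.1 μg/L was of like size, with a difference of −2.93 ± 0.34 (SE, adjusted p = 4.19e-06).

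The probes whose 6 arrays at 0.1 μg/L lay closest together were named for that narrow spread, and they differed in what followed at 1 μg/L. TC120224 had 9.04, 9.66 and 9.80 in the control, 8.16, 8.33 and 8.53 at 0.1 μg/L (SD 0.13) and 6.97, 7.42 and 7.84 at 1 μg/L, so that its 3 ranges did not overlap. Its fall of −0.90 ± 0.19 (SE) between 1 and 0.1 μg/L passed the test (adjusted p = 0.00506). TC125463 had 10.93, 10.99 and 11.28 at 0.1 μg/L (SD 0.16), and its arrays at 1 μg/L, from 9.89 to 11.60, lay on both sides of that range. TC110532 was alike, with 11.36, 11.49 and 11.75 at 0.1 μg/L (SD 0.17) and 11.01 to 11.77 at 1 μg/L. For neither did the difference between 1 and 0.1 μg/L pass the test (adjusted p = 0.317 and 0.287 in limma).

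**Figure D2:**
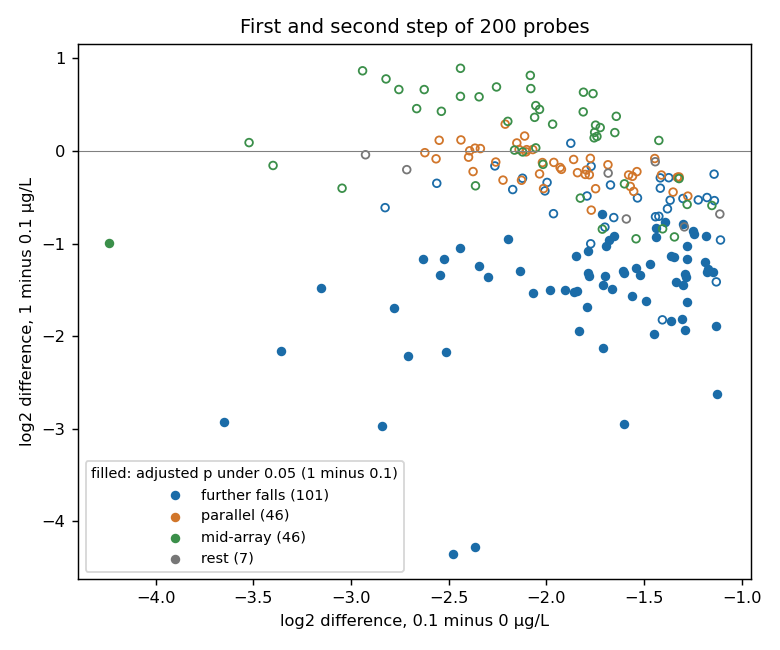
Each point is a probe, with its log2 difference between 0.1 and 0 μg/L (horizontal axis) and between 1 and 0.1 μg/L (vertical axis). Filled points had an adjusted p below 0.05 for the second step, 71 in all, and all of them lie below 0; colours give the sets described in the text, of which the further-falling set holds 70 of the filled points.

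The 200 probes were not of a single kind. The median correlation between a pair of them over the 30 arrays was 0.77, and 0.12 after each group mean had been taken out. For description they were divided after their values had been seen. A first set was made of the 46 probes whose level on replicate 1 at 0.1 μg/L was over 2 log2 units below the median of the other 5 arrays. The other 154 were clustered by average linkage on 1 minus the correlation into 6 clusters, of which a pair was large, with 101 and 46 probes, and the last 7 probes were spread over 4 small clusters. Concentrations were not tested over these sets, since the same values defined them.

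**Figure D3:**
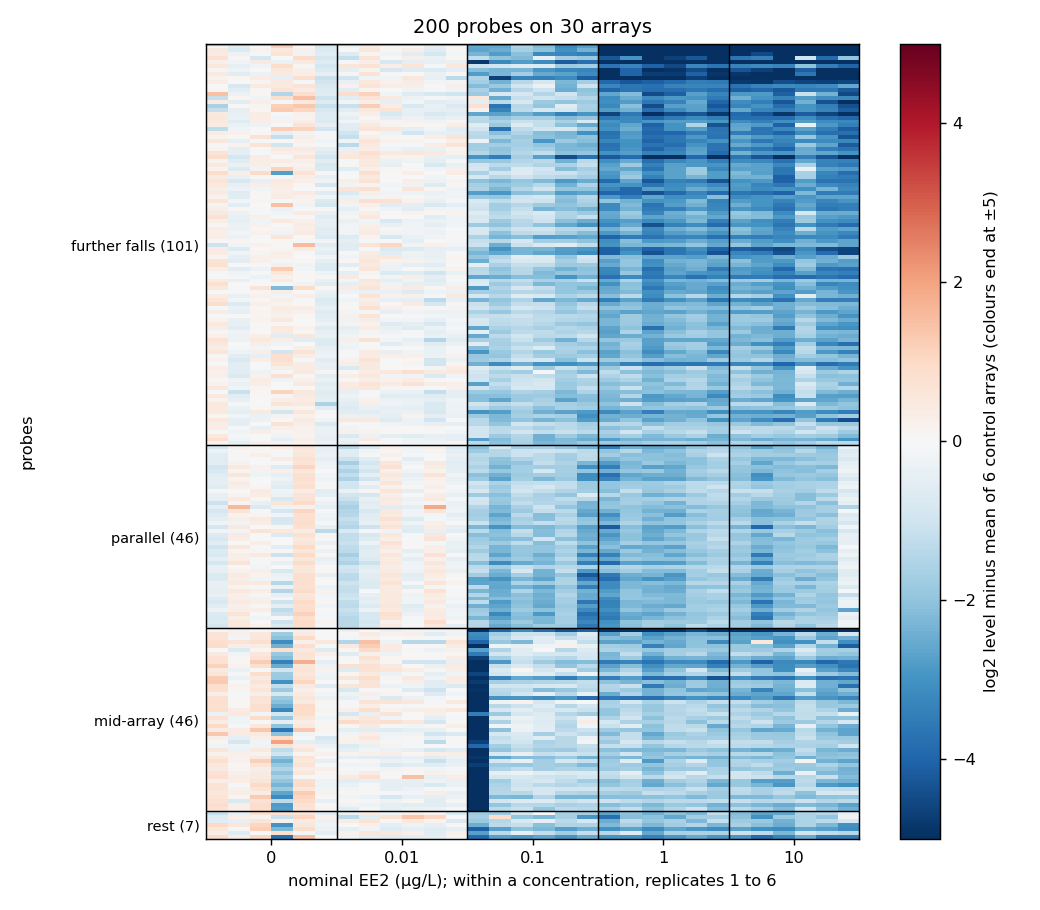
Level of the 200 probes (rows) on the 30 arrays (columns, ordered by nominal EE2 concentration and replicate number) as log2 difference from the mean of the 6 control arrays, with colours ending at ±5. Black lines separate the concentrations and the sets of 101, 46, 46 and 7 probes. The further-falling set deepens in blue again at 1 μg/L by its median, with 70 of its 101 probes called lower than at 0.1 μg/L. The parallel set does not by its median, and the mid-array probes have a single dark column at replicate 1 of 0.1 μg/L.

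The largest set, of 101 probes and here called further-falling, held 70 of the 71 probes lower at 1 than at 0.1 μg/L and 75 of the 77 lower at 10 than at 0.1 μg/L. Its median level was 10.43 in the control, 10.41 at 0.01 μg/L, 8.76 at 0.1 μg/L, 7.58 at 1 μg/L and 7.65 at 10 μg/L. A median of 58.9% of the fall was reached at 0.1 μg/L, and 90 of the 101 were over 4-fold under the control at 1 μg/L. The array medians of this set, taken as the difference from the control mean, ran from −0.53 to 0.36 in the control, from −0.35 to 0.38 at 0.01 μg/L, from −1.94 to −1.38 at 0.1 μg/L, from −3.22 to −2.35 at 1 μg/L and from −3.23 to −2.25 at 10 μg/L. The 6 arrays at 0.1 μg/L were thus apart from both sides and close to each other. They included replicate 1, the dim array, at −1.39, though probes over 2 log2 units low there had been set apart before the clustering. With that array left out, 68 of the 101 were lower at 1 than at 0.1 μg/L, beside 3.82% of all probes. The set was clustered on these same values, so its counts are a description.

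The second set, of 46 probes with control means from 8.01 to 10.43 and here called parallel, levelled off at 0.1 μg/L. Its median level was 8.40 in the control, 8.11 at 0.01 μg/L, 6.35 at 0.1 μg/L, 6.30 at 1 μg/L and 6.60 at 10 μg/L, and a median of 100.02% of the fall was reached at 0.1 μg/L. None (0) of the 46 was called between 0.1 μg/L and the upper concentrations, with 2 at an unadjusted p below 0.05 for 1 against 0.1 μg/L and 0 for 10 against 0.1 μg/L. Clustering on these same values parted this set from the further-falling one, so its levelling off and its counts are a description and not a test. Unadjusted counts over all probes were not taken. For 35 of the 46, the 95% interval of the difference between 1 and 0.1 μg/L lay within 1 log2 unit of 0. This held for 32 at 10 against 0.1 μg/L and for 21 at 10 against 1 μg/L. All 46 had a higher mean at 10 than at 1 μg/L, by a median of 0.37, and limma called 0 of them. The means at 10 μg/L include replicate 6, which stood high. The set's median difference from the control mean was −0.44 there and between −2.40 and −1.81 on the other arrays. The median over the arrays of a concentration was −1.85 at 10 μg/L and −2.11 at 1 μg/L. The rise without replicate 6 was not tested. CUST_26460_PI425536763, the probe of this set with the highest rank (33) and named after its values had been seen, had a mean of 8.23 in the control, 8.07 at 0.01 μg/L, 6.16 at 0.1 μg/L, 6.18 at 1 μg/L and 6.20 at 10 μg/L.

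The clustering brings together probes that move alike, so correlation within a set is partly built in. After the group means had been taken out, the median correlation between a pair of probes was 0.80 in the parallel set and 0.45 in the further-falling set. In the parallel set some single arrays stood apart. At 10 μg/L the median difference from the control mean was −0.44 on replicate 6 and between −2.40 and −1.81 on the other 5 arrays, and 45 of the 46 probes had their highest value of the group there. The other pool of the same tank stood at −1.82 (replicate 5) by the scanner files' assignment of arrays and at −1.81 by that of the deposited table. At 0.01 μg/L the lowest array was replicate 1, at −1.25, for 45 of the 46 probes, and in the control replicate 5, at 0.77, was the highest for 43. The further-falling set stood at −3.16 on replicate 6 at 10 μg/L and at −0.20 on replicate 1 at 0.01 μg/L, within the range of its other arrays. The parallel set was spread over the whole array, and 2 of its probes lay in the dim region. What else moved with these arrays was not tested.

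The parallel set went on outside the 200 probes. Of all probes, 61 had a correlation above 0.95 with its mean profile over the 30 arrays, 36 of them in the set and 25 outside the 200. Of these 25, 20 had a control mean under the 8 log2 units that the rule asked for. At a correlation above 0.90 there were 111 probes, with control means from 6.94 to 10.36. The closest outside probe was CUST_9214_PI425536763 (r = 0.989), with means of 8.95 in the control and 8.44, 6.57, 6.39 and 6.76 at the rising concentrations. Its means at 0 and 0.01 μg/L were further apart than the 0.5 that the rule allowed. These correlations include the difference between concentrations that the rule selected.

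**Figure D4:**
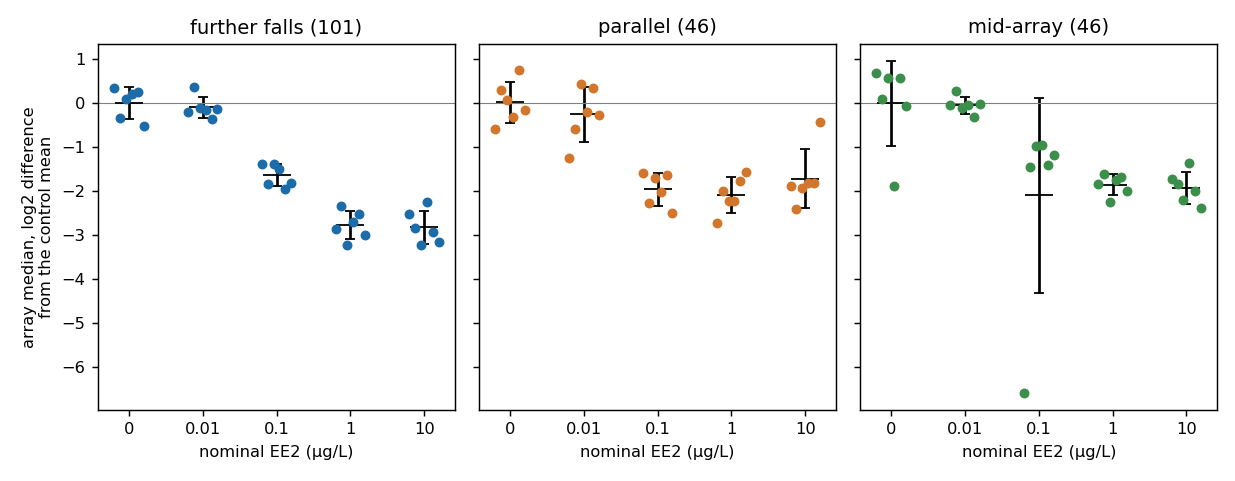
Median over the probes of a set of the log2 difference from the control mean, with 1 point per array and the mean ± SD of the 6 arrays, against nominal EE2 concentration in μg/L. The further-falling set takes 3 separate levels, the parallel set reaches its low level at 0.1 μg/L with replicate 6 at 10 μg/L standing high at −0.44, and the mid-array set has replicate 1 at 0.1 μg/L at −6.60.

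The third set, of 46 probes and here called mid-array, shared a place on the array. All 46 lay between spot rows 127 and 281 of 384 and columns 68 and 111 of 164. That rectangle was drawn around these 46, and it held 10.8% of all probes and 56 (28.0%) of the 200. The 46 are inside by construction, so the shares are not compared. The others inside were 6 further-falling probes, 2 parallel probes and 2 of the remaining probes. On replicate 1 at 0.1 μg/L the median difference of the set from the control mean was −6.60, while the other 5 arrays at this concentration lay between −1.45 and −0.96. On replicate 4 of the control the median was −1.89, against −0.05 to 0.68 on the other 5 control arrays, and 32 of the 46 were over 2 log2 units low there too. Among the 200, 46 (the set itself) and 37 were this low on these arrays, beside 5.28% and 5.48% of all probes. On the other 28 arrays at most 3 of the 200 were, and the share of all probes there was not taken.

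**Figure D5:**
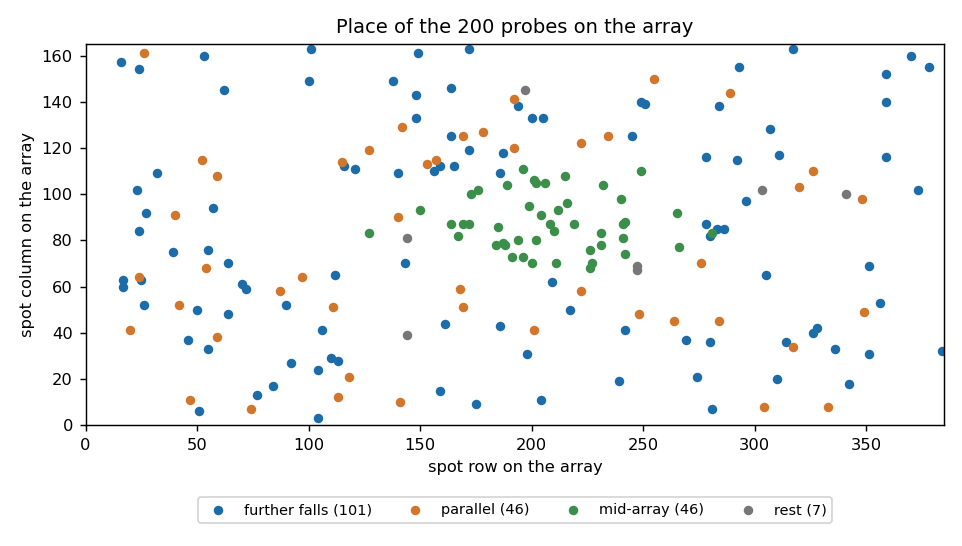
Spot row (horizontal axis) and spot column (vertical axis) of the 200 probes on the array, coloured by set. The mid-array probes fill the middle, whereas the further-falling and parallel probes are spread over the array, with 6 and 2 of them inside the rectangle of the mid-array set.

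The probes with the widest spread at 0.1 μg/L all belonged to this set. TC123107 had 3.36, 11.66 and 11.98 as its lowest, median and highest level at 0.1 μg/L, against 10.76, 13.39 and 14.03 in the control, and the array of replicate 1 stood alone. TC116934 had 1.86, 10.07 and 10.24 at 0.1 μg/L against 8.81, 12.17 and 12.50 in the control, and CUST_3654_PI425536763 had 3.24, 10.93 and 11.61 against 10.46, 12.79 and 13.29. With both dim arrays left out, the 3 probes were 3.54-fold, 4.40-fold and 3.26-fold under the control at 0.1 μg/L, in place of 6.75-fold, 7.68-fold and 6.17-fold. Their control means were then 13.53, 12.20 and 12.82, against 12.65, 11.24 and 12.01 at 0.01 μg/L. These lie further apart than the 0.5 that the rule allowed, so the 3 probes were already lower at 0.01 μg/L without the dim control array.

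Over the 46 mid-array probes, the median difference between 0.1 μg/L and the control was −2.04 with all arrays and −1.51 without the dim pair, and 36 of the 46 still had a difference of at least 1 log2 unit. The median difference between 1 and 0.1 μg/L changed sign, to −0.70 without replicate 1 at 0.1 μg/L, against 0.23 with it. Likewise 1 of the 46 was called lower at 1 than at 0.1 μg/L with all arrays and 17 without the dim pair. Of the 200 probes as a whole, 90 were then lower at 1 than at 0.1 μg/L (5.18% of the array) and 105 at 10 than at 0.1 μg/L (14.8% of the array).

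Tanks and slides did not enter the rule and were tested. An F test over the 10 differences between the 15 tank means within concentrations called 0 of the 200 probes in limma, where 0.00997% of all probes were called. Of the 200, 4 had an unadjusted p below 0.05, as did 4180 of all 60195 probes. With the tanks of the 6 arrays in doubt as the deposited table has them, 0 were called and 24 had an unadjusted p below 0.05. No count over all probes was taken with that assignment, so the 24 have no share to be set beside. The 4 slides held 7 or 8 arrays each and arrays of every concentration. An F test over slides beside concentration called 0 of the 200, where 0.0914% of all probes were called. An unadjusted p below 0.05 was found for 4402 of all 60195 probes and for 10 of the 200. Of those 10, 6 were probes of the parallel set.

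Membership followed the processing for part of the list. The same rule on the scanner signals, quantile-normalised anew, found 196 of the 200 again. Without replicate 1 at 0.1 μg/L it found 169, 20 of them mid-array, and without both dim arrays 146, made of 91 further-falling, 42 parallel, 12 mid-array and 1 of the remaining probes. Every setting tried found 70 of them, of which 52 were further-falling, 13 parallel and 5 mid-array.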

How the data were processed

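Gonad RNA of 30 pools was measured on Agilent arrays in 1 colour. Per the file headers, the scanner files hold spot intensity that the scanner software had already background-subtracted, and the authors deposited a table of quantile-normalised log2 values of the same arrays, whose submitters' notes name R 2.15.3. There, 3 pairs of columns within a concentration held each other's values, so the tank and replicate number of 6 arrays are in doubt and the scanner files' assignment was used. The 200 probes were selected on the table, and all other values came from the scanner signals, quantile-normalised on the log2 scale, with control spots left out and spots of a probe averaged. limma 3.58.1 (R 4.3.3) was fitted with 1 mean per concentration to 60195 probes, with Benjamini-Hochberg adjustment within each contrast and a threshold of 0.05. Intervals were those of the fit. The fits were tested on simulated data. Probes named in the text were the first 3, those beside the edge of the rule, the 5 with the largest called fall (0 rises were called) at 1 against 0.1 μg/L and the 3 with the largest and the 3 with the smallest SD at 0.1 μg/L. The parts of the naming rule that needed gene names found none. The probes and lists were chosen with earlier results of these data known. Alternatives covered scaling, background correction (normexp with an offset of 50), the deposited table, a filter on dim probes, slide, tank, replicate number, array weights and single arrays.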

Additional observations from a re-analysis of the deposited data

Results flagged for a closer look

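In 100 groups of 6 arrays (16 named probes and the array medians of the 200 probes and their 3 larger sets, at 5 concentrations), 11 had a highest or lowest array set apart from the others by a gap above Dixon's 95% limit. Chance sets apart about 1 in 20 groups, but the count cannot be read against that rate. The mid-array set was defined by low values on replicate 1 at 0.1 μg/L, and CUST_3654_PI425536763, TC116934 and TC123107 were named for their spread at 0.1 μg/L, so their 4 entries at that concentration restate the choice. Probes and sets that move together are also not independent.

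Of these, 4 single-probe groups at 0.1 μg/L had replicate 1 as the low array. TC110694 had 7.64 there beside a group median of 10.14, CUST_3654_PI425536763 had 3.24 beside 10.93, TC116934 had 1.86 beside 10.07, and TC123107 had 3.36 beside 11.66. The median of the mid-array set stood at −6.60 on the same array, beside a group median of −1.29. In the control, replicate 4 was the low array for TC116934, with 8.81 beside 12.17, for TC123107, with 10.76 beside 13.39, and for the median of the mid-array set, with −1.89 beside 0.33. These are the arrays with the dim middle.

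The other 3 lay elsewhere. TC120224 had 9.04 on control replicate 6 beside a group median of 9.66. The median of the further-falling set was 0.38 on replicate 2 at 0.01 μg/L beside −0.14, and that of the parallel set was −0.44 on replicate 6 at 10 μg/L beside −1.85.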

How the results depend on the processing

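The count of probes lower at 1 than at 0.1 μg/L was 71 in the fit reported and between 62 (normexp background correction) and 94 (array weights) under the other settings, with 56 to 78 when single arrays were left out. The lowest came without replicate 3 at 1 μg/L. At 10 against 0.1 μg/L the count was 77, between 69 and 105, with 68 to 85 without single arrays. The shares of all probes called lower in these contrasts were 4.66% and 13.1% in the fit reported. They were 3.82% and 12.1% without replicate 1 at 0.1 μg/L, and 5.18% and 14.8% without the dim pair. Shares under the other settings are not given, so a change in these counts is not read as a result about the 200. With the replicate block the counts were 69 and 80. Same-numbered samples of different concentrations were not paired by the labels, and their deviations correlated with a median of 0.02 (60 pairs, from −0.46 to 0.43). Between 10 and 1 μg/L, 0 probes were called except with array weights, which called 4, a count with no share of all probes beside it. With normexp and its offset of 50 intensity units, the median difference from the control was −1.37 at 0.1 μg/L, −1.78 at 1 μg/L and −1.73 at 10 μg/L. Without single arrays it ranged from −0.21 to −0.04 at 0.01 μg/L, from −1.88 to −1.65 at 0.1 μg/L, from −2.42 to −2.16 at 1 μg/L and from −2.30 to −2.02 at 10 μg/L, and the rule found 154 to 197 of the probes again. Normexp found 145. With the 46 mid-array probes set aside, a choice made after seeing the data, 70 and 75 were called. The cause of these shifts was not tested.

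For 4 named probes the difference between 1 and 0.1 μg/L changed sign. TC110694 gave 0.0093 without replicate 3 at 0.1 μg/L. Without replicate 1 at 0.1 μg/L, and equally without both dim arrays, CUST_3654_PI425536763 gave −0.65, TC116934 −0.50 and TC123107 −0.73, and with array weights −0.34, −0.18 and −0.49. Over all single arrays left out, the difference ranged from −0.59 to 0.0093 for TC110694, from −0.65 to 1.02 for CUST_3654_PI425536763, from −0.50 to 1.17 for TC116934 and from −0.73 to 0.996 for TC123107. The call for CUST_6655_PI425536763 was lost with normexp (adjusted p = 0.0815), with tank as a random block (0.0590), over tank means (0.0919) and with the replicate block (0.0511), and that for TC117554 with normexp (0.0826), all from limma. TC118641 passed the test among probes well above background (0.0495) and with array weights (0.0263), and TC121083 with array weights (0.0247). Of the 200 probes, 46 were not well above background on every array. The call was missing on some array for 10 probes in the control, 0 at 0.01 μg/L, 27 at 0.1 μg/L, 20 at 1 μg/L and 6 at 10 μg/L. The control and 0.1 μg/L hold the dim arrays, and how many of these losses go with the dim region was not tested.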
